A study of Arabidopsis thaliana with 9 samples.

Results

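The loci described here are genes of *Arabidopsis thaliana* that carried no exon in the gene models used for counting, so that every read placed on them was listed as a gene read and none as an exon read. They were chosen by that property and by a summed total of at least 50 reads over all 9 libraries. Of 28642 genes in the table, 1314 had an exon length of 0, and 129 of these reached 50 reads. Because reads chose the loci, their levels are given as a description. The sum was taken over all genotypes, so a locus that is high in only 1 genotype can have been chosen through it: 12 of the 129 loci had fewer than 50 reads in the 6 mutant libraries together.

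The libraries were made from shoots of 2-week-old seedlings grown on agar plates with 1% sucrose, kept for 48 h in darkness and then lit for 6 h with 100 µmol photons per m2 and s. Shoots of *vtc2-4* (3 libraries), *vtc3-3* (3 libraries) and the wild type (WT, ecotype Col-0, 3 libraries) were compared. Each mutant is a single T-DNA insertion line, *vtc2-4* in VTC2, which encodes the GDP-L-galactose phosphorylase of ascorbate synthesis, and *vtc3-3* in VTC3, which is required for full ascorbate accumulation. The libraries were biological replicates, and for other plate-grown plants of the study a replicate was a pool of shoots.

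Plant genomes are transcribed well beyond their coding genes. Some long RNAs are cut into small regulatory RNAs: microRNA precursors are processed by DICER-LIKE1, and *TAS* transcripts are cleaved under the guidance of a microRNA and then turned into phased trans-acting siRNAs (tasiRNAs) that silence other mRNAs. Other long RNAs overlap a coding gene on its opposite strand, and for many of them no role is known. Libraries made from fragmented long RNA record the precursors and not the small RNAs cut from them.

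Total gene reads lay between 4399733 and 7567492 per library. The labels were checked with the mutated genes. VTC2 had 47, 51 and 37 reads in *vtc2-4*, against 2842, 3897 and 4500 reads in WT, and VTC3 (AT2G40860) had 33, 20 and 12 reads in *vtc3-3*, against 75, 95 and 110 reads in WT. WT replicate 1 stood apart from the other 8 libraries, with a mean correlation of 0.908 with them, against 0.971 to 0.975 for each of the others, so the fold changes against WT of the loci described here are given with and without it wherever they are printed. The summed level of 5 green-shoot marker genes was 25957 to 29092 CPM (counts scaled to library size) in the mutant libraries, and in WT it was 13201 in replicate 1, 27340 in replicate 2 and 27272 in replicate 3. Markers of other organs were near 0: the summed level was at most 0.387 CPM for 4 root genes, of which EXPA7, COBL9 and IRT1 had no read in any library, at most 2.78 CPM for 2 flower genes and at most 2.78 CPM for 2 seed genes.

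The RefSeq annotation of TAIR10.1 held 127 of the 129 loci. All genes of the table found there by their identifier (28009) lay on the same chromosome in overlapping intervals, and positions below are those of the table. The loci fell into 44 natural antisense RNAs, 68 other non-coding RNAs, 5 microRNA precursors, 5 *TAS* precursors, 3 ribosomal RNA loci, 2 small nuclear RNAs and 2 mitochondrial loci that the annotation used here does not name. Kinds are those of the annotation, so the kind of the 2 mitochondrial loci, ribosomal or other, was not settled. Their lengths ran between 162 and 7697 bases, with a median of 1438. All 623 transfer RNA loci without exons were listed at 0 reads in every library, and the 71 small nucleolar RNA loci shared 151 reads with none reaching 50. At the threshold, the antisense loci AT1G27921 with 50 reads and AT1G75295 with 52 reads were just inside, and AT1G15175 and AT5G07322, each with 49 reads, were just outside.

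Sequences are shown first for the locus that differed most between genotypes, AT1G67105, an unnamed non-coding RNA of 786 bases at chr1:25057479-25058264 on the plus strand. It overlapped no other gene, had a GC content of 41.3%, and its longest frame between an ATG and a stop codon held 33 codons. The first 240 bases of the locus (chr1:25057479-25057718, TAIR10.1) are printed with the arms of its longest perfect inverted repeat in capitals, that is, a pair of stretches that are reverse complements of each other with at most 50 bases between them.
AT1G67105: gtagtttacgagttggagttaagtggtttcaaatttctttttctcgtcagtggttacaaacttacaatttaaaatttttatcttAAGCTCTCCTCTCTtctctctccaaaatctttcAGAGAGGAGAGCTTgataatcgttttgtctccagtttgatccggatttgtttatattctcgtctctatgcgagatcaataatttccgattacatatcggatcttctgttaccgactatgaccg
The arms were 14 bases long, at bases 85 to 98 and 118 to 131 of the locus, with 19 bases between them. The repeat was noticed after the expression values were seen. Of 127 loci searched the same way, 2 held arms of 14 bases or more, and the other was AT4G13495, whose arms of 21 bases (chr4:7844566-7844586 and chr4:7844596-7844616) had 9 bases between them. The median longest arm over all loci was 9 bases.

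Mature microRNAs lay inside 8 of the loci, 13 microRNAs in all, of which 11 were on the strand of the locus, and their 13 seeds were all different. Those of the annotated precursor loci are shown because the precursors are described below, with the seed (bases 2 to 8) in capitals; for MIR824 and MIR156c the 5′ arm is given.
ath-miR156c-5p: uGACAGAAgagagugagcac
ath-miR163: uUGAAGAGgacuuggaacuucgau
ath-miR167d: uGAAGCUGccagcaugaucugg
ath-miR414: uCAUCUUCaucaucaucguca
ath-miR824-5p: uAGACCAUuugugagaaggga
The long non-coding RNA AT4G13495 (chr4:7842967-7846774, plus strand), the locus with the most uniquely mapped reads, enclosed mature microRNAs of 3 different precursors on its own strand, and the right arm of its inverted repeat ran into miR5026.
ath-miR5026: aCUCAUAAgaucgugacacgu
ath-miR850: uAAGAUCCggacuacaacaaag
ath-miR863-5p: uUAUGUCUuguugaucucaau

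The *TAS* precursors are joined by the microRNA that starts their processing, miR173 for TAS1 and TAS2 and miR390 for TAS3. The best ungapped match to each microRNA is shown as the DNA of the locus, where capitals mark bases that can pair with the microRNA and lower case marks mismatches and G:U pairs.
ath-miR173-5p: uUCGCUUGcagagagaaaucac
TAS1A: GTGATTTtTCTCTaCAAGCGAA
TAS1B: GTGATTTtTCTCaaCAAGCGAA
TAS1C: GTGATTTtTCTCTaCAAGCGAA
TAS2: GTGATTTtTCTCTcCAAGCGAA
ath-miR390a-5p: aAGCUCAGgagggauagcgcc
TAS3, base 609: GGtGtTATCCtatCTGAGCTT
TAS3, base 853: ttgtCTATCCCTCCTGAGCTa
The miR173 site of TAS1A, TAS1C and TAS2 had 1 mismatch and 1 G:U pair, and that of TAS1B had 2 mismatches and 1 G:U pair. The best match to miR173 in TAS3 had 7 mismatches. TAS3 held 2 matches to miR390a, beginning at bases 609 and 853 of the locus, the first with 1 mismatch and 4 G:U pairs and the second with 5 mismatches.

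The 129 loci held 90267 reads, a small share of each library. They took 0.154, 0.142 and 0.151% of total gene reads in *vtc2-4*, 0.162, 0.158 and 0.164% in *vtc3-3*, and 0.283, 0.154 and 0.141% in WT, in the order of the replicates. WT replicate 1 was above every other library, and the remaining libraries lay within 0.141 to 0.164%. The mean was 0.149 ± 0.00655% in *vtc2-4* and 0.192 ± 0.0784% in WT (SD, n = 3 each), and an exact two-sided permutation test over libraries gave p = 0.7. For *vtc3-3*, with 0.161 ± 0.00308% (SD, n = 3), the same exact test against WT gave p = 1. The smallest p that 3 against 3 libraries allow is 0.1. Without WT replicate 1 the differences turned round, to 0.00168 percentage points for *vtc2-4* against WT (exact permutation p = 0.7) and 0.0141 for *vtc3-3* against WT (exact permutation p = 0.1, the smallest that 3 against 2 libraries allow), where all *vtc3-3* libraries were above both WT libraries. With uniquely mapped reads alone the difference for *vtc2-4* without WT replicate 1 was 0.0076, and without the ribosomal and mitochondrial loci it was 0.00858. In both of these settings every *vtc2-4* library and every *vtc3-3* library was above WT replicates 2 and 3 (exact permutation p = 0.1 each).

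**Figure D1:**
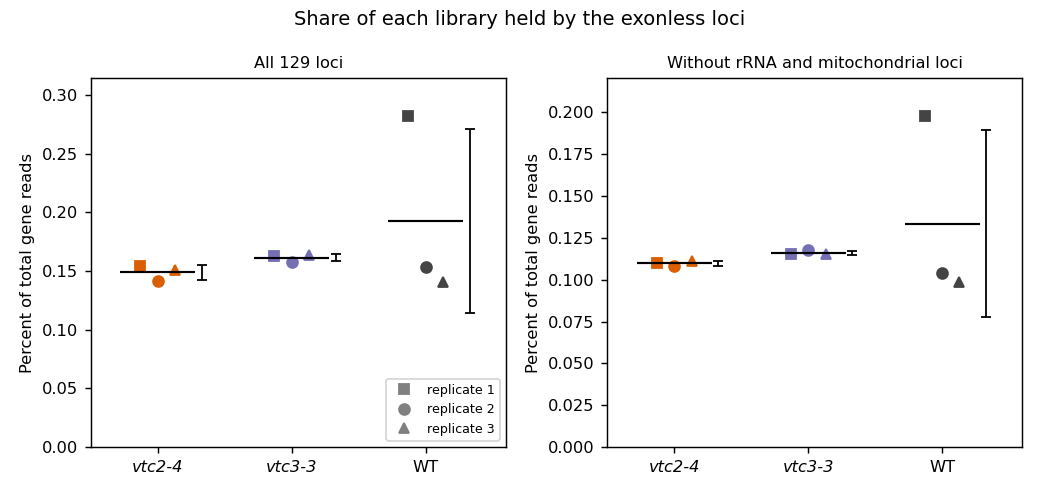
Percent of total gene reads held by the exonless loci in each library (left, all 129 loci; right, without the rRNA and mitochondrial loci), by genotype; symbols are replicates, lines are means and bars are SD of 3 libraries. WT replicate 1 stands alone at 0.283% on the left, while the other 8 libraries lie between 0.141 and 0.164%.

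Reads were concentrated on few loci. The 3 loci annotated as ribosomal RNA held 26.5% of the reads of the set, the 68 other non-coding RNAs 55.2% and the 44 antisense RNAs 11.7%. The *TAS* precursors held 2.33%, the microRNA precursors 2.16%, the mitochondrial loci 1.90% and the small nuclear RNAs 0.259%. The 10 loci with the most reads were AT2G01010 (18724), AT4G13495 (11498), GUT15 (8813), AT4G36648 (3231), AT5G24735 (3148), AT3G41768 (2888), AT2G01020 (2271), AT1G69252 (1635), AT2G14878 (1506) and AT2G15292 (1468). GUT15 (AT2G18440) is a gene first described for its unstable non-coding transcript. The median over all 129 loci was 205 reads.

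The order changed once length was taken into account. As RPKM over the whole locus, averaged over the WT libraries, AT2G01020 stood at 343, AT2G01010 at 237, AT5G24735 at 90.5, GUT15 at 75.3, AT1G10682 at 50.5 and AT4G13495 at 49.4. Over WT replicates 2 and 3 alone the order was AT2G01020 at 235, AT2G01010 at 188, GUT15 at 58.1, AT5G24735 at 54.5 and AT4G13495 at 35.5, with AT1G10682 at 29.9. The values of the ribosomal loci are uncertain, because 0 of the AT2G01020 reads and 0.0214% of the AT2G01010 reads were mapped uniquely. AT2G01010 and AT3G41768 have the same length, 1808 bases, and differ at 2 positions (99.9% identity), while all reads of AT3G41768 were listed as unique. Outside the ribosomal loci repeats mattered little, since 121 of the 129 loci had only uniquely mapped reads.

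In most of these loci WT replicate 1 was the highest library. Its normalized count (total gene reads scaled by the TMM method of edgeR) was above both other WT libraries in 104 of 129 loci and below both in 15. It was the highest of all 9 libraries in 70.5% of the loci, against 37.8% of all genes tested, and the lowest in 7.75%, against 37.3%. The ratio of WT replicate 1 to the mean of WT replicates 2 and 3 had a median of 1.96 over the loci and 1.00 over all genes tested. By kind, the median ratio was 3.58 for the small nuclear RNAs, 2.48 for the *TAS* precursors, 2.44 for the microRNA precursors, 2.13 for the other non-coding RNAs, 1.87 for the ribosomal loci, 1.76 for the mitochondrial loci and 1.50 for the antisense RNAs.

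The ratio went with length, as it did over all genes tested, where the deviation of WT replicate 1 from the other libraries had a correlation of -0.466 with log2 locus length, against -0.0537 to 0.156 for the other libraries. Among the loci described here, the 41 loci under 1000 bases had a median of 2.40, and the 28 loci over 2500 bases had a median of 1.23. Across the 129 loci, which share the same 3 libraries, the log2 ratio and log2 length had Pearson's r = -0.361 and Spearman's rho = -0.434. The summed green-shoot markers, given above, were also lowest in WT replicate 1, and their part in these ratios was not tested. The lowest ratio, 0.0661, belonged to AT3G22121 (singled out after its values were seen), a natural antisense RNA of 722 bases that overlaps CWLP, a gene for a cell wall-plasma membrane linker protein, along 705 bases. AT3G22121 had 39, 54 and 67 reads in *vtc2-4*, 60, 55 and 35 in *vtc3-3* and 3, 37 and 52 in WT. CWLP itself had 2547, 2649 and 2530 reads in *vtc2-4*, 2393, 2191 and 1626 in *vtc3-3* and 916, 1855 and 2577 in WT, again lowest in WT replicate 1. Along their overlap the reads of AT3G22121 and CWLP cannot be told apart where strand is not recorded.

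**Figure D2:**
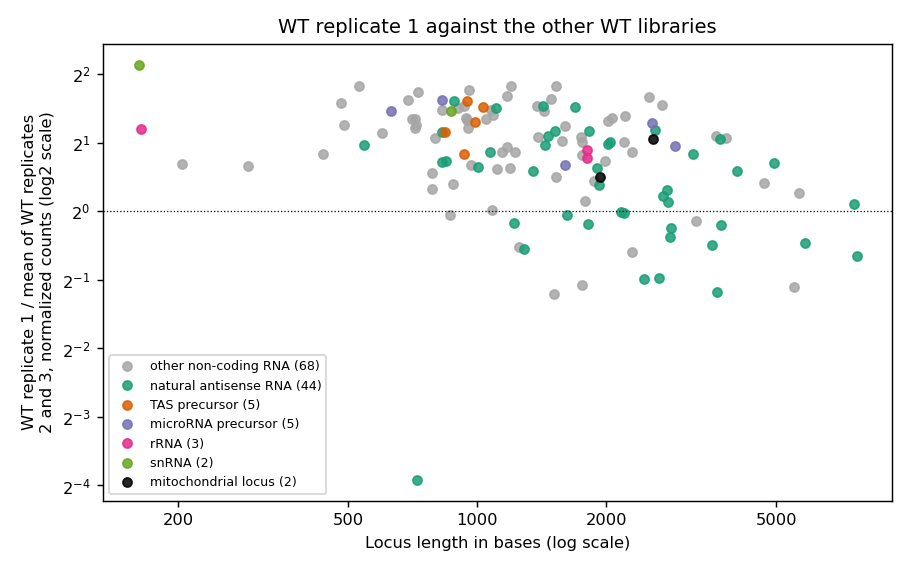
Ratio of the normalized count in WT replicate 1 to the mean of WT replicates 2 and 3 (log2 scale) against locus length in bases (log scale) for the 129 loci, coloured by kind. Most points lie above the dotted line of equal counts, the median ratio being 2.40 under 1000 bases and 1.23 over 2500 bases; the lowest point, at 0.0661, is AT3G22121.

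Outside WT the spread between replicates was smaller. The median coefficient of variation over the 113 loci that passed the filter on low counts was 14.0% in *vtc2-4*, 16.8% in *vtc3-3* and 45.7% in WT, and 11.9% between WT replicates 2 and 3. For the other genes tested it was 7.97% in *vtc2-4*, 8.50% in *vtc3-3* and 25.5% in WT.

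To ask which loci depended on VTC2, *vtc2-4* was compared with WT by edgeR's quasi-likelihood test over all 17388 genes that passed the filter, with Benjamini-Hochberg adjustment over all of them. Of the 113 loci tested, 1 passed an adjusted p of 0.05, AT1G67105, which fell. This is to be read against 0.598% of all genes called in that comparison. The remaining 112 did not pass, although 91 of the 113 had a negative log2 fold change, with a median of -0.40 against -0.01 over all genes tested. That shift rested on WT replicate 1: without it the median over 118 loci tested was 0.00, with 59 loci positive and 59 negative.

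In *vtc3-3* against WT, again 1 of 113 loci passed, the same AT1G67105, with 0.023% of all genes called. The median log2 fold change was -0.35 with WT replicate 1, against -0.003 over all genes, and 0.04 over 118 loci without it. The mutants share the WT libraries, so the medians of both comparisons move together with them. Between the mutants, where WT enters only through the shared estimate of the spread, no locus of 113 passed in *vtc3-3* against *vtc2-4* by edgeR (0.351% of all genes called). In that comparison 5 of the loci (4.42%) had an unadjusted p under 0.05, against 5.10% of all genes, DESeq2 and edgeR's exact test called 0, and limma voom with library weights called 4. The share of all genes that limma voom called is not given here. The median log2 fold change of the loci between the mutants was 0.04.

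**Figure D3:**
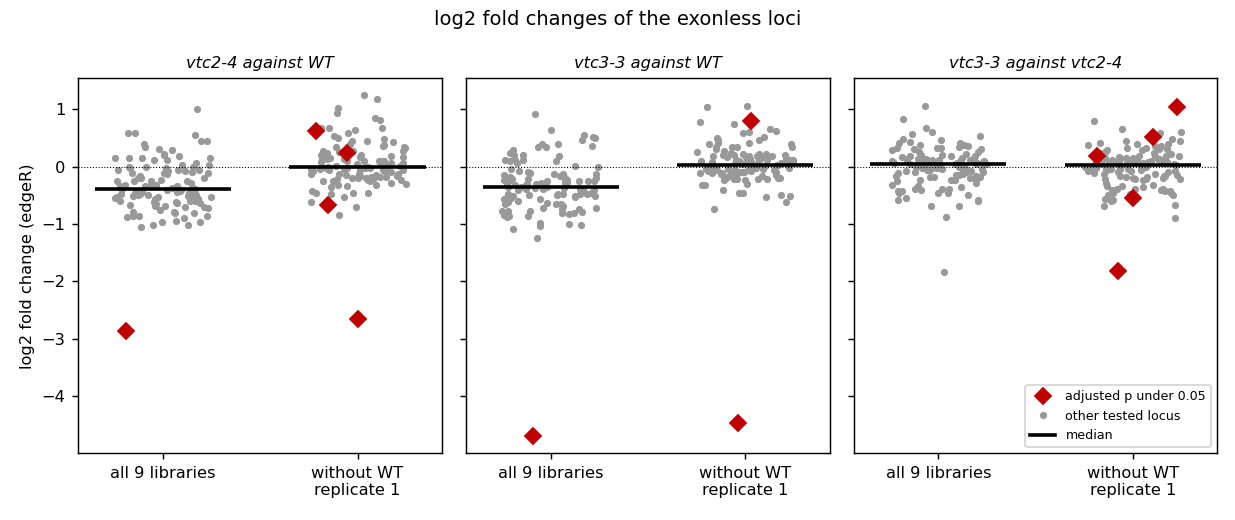
log2 fold changes of the exonless loci in 3 comparisons, each fitted with all 9 libraries (113 loci) and without WT replicate 1 (118 loci). Red diamonds passed an adjusted p of 0.05 and black lines are medians. In both comparisons with WT the median moves up to 0 once WT replicate 1 is left out, and AT1G67105 is the lowest point either way.

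AT1G67105 was low in both mutants. It had 43 reads in the 6 mutant libraries and 204 in WT, so its WT reads carried it past the 50 reads of the rule. In whole shoots fewer cells with the RNA and less RNA per cell cannot be told apart. AT1G67105 had 10, 12 and 13 reads in *vtc2-4*, 6, 2 and 0 reads in *vtc3-3*, and 88, 51 and 65 reads in WT. No mutant library reached the lowest WT library, and all *vtc3-3* libraries were below all *vtc2-4* libraries. As normalized counts it stood at 10.2 ± 1.18 in *vtc2-4*, 2.36 ± 2.37 in *vtc3-3* and 74.8 ± 18.2 in WT (SD, n = 3 each). The log2 fold change against WT was -2.87 ± 0.35 (SE) in *vtc2-4*, with an adjusted p of 0.00625, and -4.70 ± 0.45 in *vtc3-3*, with an adjusted p of 0.00535. Without WT replicate 1 it was -2.65 (adjusted p = 6.93e-06) in *vtc2-4* and -4.47 (adjusted p = 2e-06) in *vtc3-3*.

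The call for AT1G67105 was lost under 2 alternatives in each comparison with WT, at about the same fold change. In *vtc2-4* the log2 fold change was -2.79 (adjusted p = 0.0652) without *vtc2-4* replicate 1 and -2.87 (adjusted p = 0.0635) without *vtc2-4* replicate 2. In *vtc3-3* it was -4.61 (adjusted p = 0.0836) without *vtc3-3* replicate 2 and -4.71 (adjusted p = 0.174) when only *vtc3-3* and WT entered the fit. The direct difference, *vtc3-3* against *vtc2-4*, was -1.83 ± 0.56 on the log2 scale with an adjusted p of 0.482, and -1.82 with an adjusted p of 0.0357 without WT replicate 1. It also passed by limma voom with library weights on all libraries (-2.12, adjusted p = 0.0118). With only the 2 mutants in the quasi-likelihood fit it was -1.82 (adjusted p = 0.0487). The genes on either side gave no signal: LBD40, 2631 bases to the left, had 0 reads in all libraries, and CYP735A2, a cytokinin hydroxylase gene 3466 bases to the right, had 2 reads.

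The levels of AT4G13495, the locus around miR5026, miR850 and miR863, depended on WT replicate 1. It had 1443, 1512 and 1393 reads in *vtc2-4*, 1775, 1228 and 1068 in *vtc3-3* and 1602, 693 and 784 in WT. After scaling, the replicates of each mutant were close together, at 1263 ± 43.6 normalized counts in *vtc2-4* and 1439 ± 36.7 in *vtc3-3* (SD, n = 3 each), with all *vtc3-3* libraries above all *vtc2-4* libraries, while WT had 1740, 832 and 817, so that the WT libraries lay on both sides of all mutant libraries. With all 9 libraries no difference passed by edgeR's quasi-likelihood test. The log2 fold change was 0.16 ± 0.26 (adjusted p = 0.775) in *vtc2-4* and 0.35 ± 0.26 (adjusted p = 0.634) in *vtc3-3* against WT. DESeq2 and edgeR's exact test did not call AT4G13495 either. Limma voom with library weights did on the same libraries, at 0.59 (adjusted p = 2.12e-05) in *vtc2-4* and 0.78 (adjusted p = 3.35e-06) in *vtc3-3* against WT. By the quasi-likelihood test without WT replicate 1 the log2 fold change was 0.62 ± 0.06 (adjusted p = 1.17e-06) in *vtc2-4* and 0.80 ± 0.06 (adjusted p = 2.31e-07) in *vtc3-3* against WT. In *vtc3-3* against *vtc2-4* it was 0.19 ± 0.05 (adjusted p = 0.0285) in that fit, and 0.19 (adjusted p = 0.0331) with only the 2 mutants fitted.

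Leaving out WT replicate 1 raised the number of calls among all genes too, to 6.05% in *vtc2-4* against WT, 0.681% in *vtc3-3* against WT and 6.76% in *vtc3-3* against *vtc2-4*. Of the 118 loci tested then, 4, 2 and 5 passed in these comparisons, a share of 3.39% in the first, 1.69% in the second and 4.24% in the last. Besides AT1G67105 and AT4G13495 they were GUT15, ATMG01390, AT2G01020 and AT1G64563, each described next with both fits.

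GUT15 was level among the mutants. Its normalized count was 959 ± 13.1 in *vtc2-4* and 955 ± 51.5 in *vtc3-3* (SD, n = 3 each), and 1492, 877 and 753 in the WT libraries. The log2 fold change of GUT15 in *vtc2-4* against WT was -0.12 (adjusted p = 0.806) with all libraries and 0.24 (adjusted p = 0.0457) without WT replicate 1, so that its direction turned with that library. In *vtc3-3* against WT it was -0.12 with all libraries and 0.23 without WT replicate 1, past the threshold in neither fit.

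The mitochondrial locus ATMG01390 (1935 bases, positions 361350 to 363284 of the mitochondrial genome) was lowest in *vtc2-4*. It had 104, 94 and 99 reads in *vtc2-4*, 139, 93 and 115 in *vtc3-3* and 180, 115 and 131 in WT. The normalized counts were 86.4 ± 6.80 in *vtc2-4*, 126 ± 28.4 in *vtc3-3* and 157 ± 33.6 in WT (SD, n = 3 each), and those of *vtc2-4* overlapped with no library of the other genotypes. The log2 fold change in *vtc2-4* against WT was -0.86 ± 0.20 (adjusted p = 0.125) by edgeR's quasi-likelihood test with all 9 libraries. On the same libraries it passed by DESeq2 (-0.87, adjusted p = 0.0167), edgeR's exact test (-0.86, adjusted p = 0.0133) and limma voom with library weights (-0.68, adjusted p = 0.00366), and by the quasi-likelihood test without WT replicate 1 it was -0.67 ± 0.15 (adjusted p = 0.00881). In *vtc3-3* against *vtc2-4* it was 0.53 (adjusted p = 0.763) with all libraries and 0.51 (adjusted p = 0.0262) without WT replicate 1. This difference between the mutants also passed by limma voom with library weights on all 9 libraries (0.49, adjusted p = 0.0243). With only the 2 mutants in the quasi-likelihood fit it was 0.52 (adjusted p = 0.0335). The other mitochondrial locus, ATMG00020, had 76, 64 and 73 reads in *vtc2-4*, 98, 49 and 48 in *vtc3-3* and 122, 63 and 49 in WT, and passed in no fit described here.

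A difference between the mutants was also seen in 2 further loci by edgeR's quasi-likelihood test when WT replicate 1 was left out. AT1G64563, a non-coding RNA of 3251 bases on chromosome 1, had 25, 24 and 19 reads in *vtc3-3*, 14, 15 and 11 in *vtc2-4* and 16, 18 and 16 in WT, with WT between the mutants. Its log2 fold change in *vtc3-3* against *vtc2-4* was 1.06 (adjusted p = 0.255) with all libraries and 1.05 (adjusted p = 0.0296) without WT replicate 1. The ribosomal locus AT2G01020 had 240, 125 and 126 reads in *vtc3-3*, 234, 295 and 331 in *vtc2-4* and 500, 202 and 218 in WT, with a log2 fold change of -0.55 (adjusted p = 1) and -0.54 (adjusted p = 0.00523) in the same fits. With all 9 libraries limma voom with library weights called both differences, at 1.04 (adjusted p = 0.0159) for AT1G64563 and -0.55 (adjusted p = 0.00469) for AT2G01020. With only the 2 mutants in the quasi-likelihood fit they passed too, at 1.05 (adjusted p = 0.0297) for AT1G64563 and -0.54 (adjusted p = 0.00626) for AT2G01020. No read of AT2G01020 was mapped uniquely. The neighbouring ribosomal locus AT2G01010 gave 0.29 in *vtc3-3* against *vtc2-4* both with all libraries and without WT replicate 1, in the other direction, and passed in neither.

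**Figure D4:**
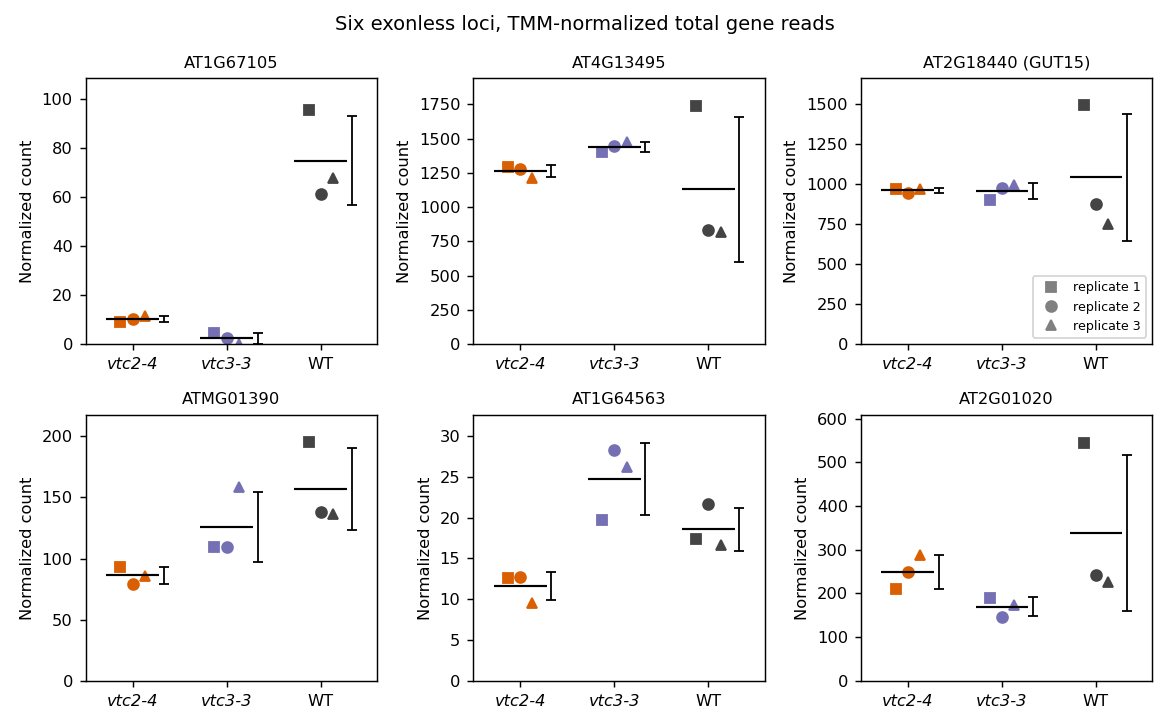
TMM-normalized total gene reads of 6 exonless loci per library, by genotype; symbols are replicates, lines are means and bars are SD of 3 libraries. AT1G67105 stands at 10.2 in vtc2-4, 2.36 in vtc3-3 and 74.8 in WT, whereas in AT4G13495 and GUT15 the WT libraries fall on both sides of the mutants because WT replicate 1 is the highest.

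Normalized counts of *vtc2-4* that did not overlap with those of WT were found in 1 locus that was higher (0.885% of 113, against 8.43% of all genes) and in 12 that were lower (10.6%, against 8.14%). For *vtc3-3* these were 2 higher (1.77%, against 6.17% of all genes) and 8 lower (7.08%, against 5.92%). In *vtc3-3* against *vtc2-4*, 9 were higher (7.96%, against 11.3%) and 14 lower (12.4%, against 12.2%). Set against WT replicates 2 and 3 alone, *vtc2-4* was higher in 18 of 118 loci (15.3%, against 17.5% of all genes) and lower in 13 of 118, where 17.4% of all genes were lower. In the same setting *vtc3-3* was higher in 15 (12.7%, against 12.5%) and lower in 9 (7.63%, against 12.7%).

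With all 9 libraries, the higher one in *vtc2-4* was AT1G06265, with 27, 42 and 23 reads in *vtc2-4* against 18, 14 and 16 in WT. AT1G06265 is antisense to AT1G06260, which it overlaps along 1156 bases, and its log2 fold change was 0.59 (adjusted p = 0.51), or 0.67 without WT replicate 1. The partner AT1G06260 had 33, 40 and 25 reads in *vtc2-4* against 15, 19 and 17 in WT. Its log2 fold change was also 0.59 (adjusted p = 0.54), or 0.50 without WT replicate 1. Reads of this pair cannot be told apart where strand is not recorded. The lowest in *vtc2-4* after AT1G67105 were AT2G43375, with a log2 fold change of -1.06 (adjusted p = 0.456), or -0.62 without WT replicate 1, and AT5G24735, with -0.94 (adjusted p = 0.445). AT5G24735 showed how WT replicate 1 took part, with 273, 336 and 298 reads in *vtc2-4* and 826, 263 and 291 in WT, and without that library its log2 fold change was -0.23.

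In *vtc3-3* the higher loci were AT5G34871, with 88, 67 and 52 reads in *vtc3-3* against 61, 43 and 40 in WT, and AT2G15292, with 219, 180 and 119 reads in *vtc3-3* against 101, 135 and 147 in WT. Their log2 fold changes were 0.46 for AT5G34871 and 0.37 for AT2G15292 (adjusted p = 0.625 each), and without WT replicate 1 they were 0.65 for AT5G34871 and 0.21 for AT2G15292. Among the 10 loci with the most reads, AT2G15292 was the only locus with WT replicate 1 as its lowest library. The lowest in *vtc3-3* after AT1G67105 were AT2G01020, with -0.99, and AT4G03038, with -0.88 (adjusted p = 0.625 each). These were -0.45 for AT2G01020 and -0.50 for AT4G03038 without WT replicate 1. The interval of AT4G03038 holds miR826b on its own strand and miR826a on the opposite strand.

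No *TAS* precursor passed the test in any comparison. TAS2 had 79, 71 and 49 reads in *vtc2-4*, 89, 67 and 50 in *vtc3-3* and 139, 41 and 53 in WT. TAS3, whose tasiRNAs silence AUXIN RESPONSE FACTOR genes, had 53, 48 and 52 reads in *vtc2-4*, 26, 31 and 33 in *vtc3-3* and 87, 27 and 28 in WT. In all 5 *TAS* loci WT replicate 1 was above both other WT libraries. The median log2 fold change of the 5 was -0.45 in *vtc2-4* and -0.46 in *vtc3-3* against WT, and without WT replicate 1 it was 0.05 in *vtc2-4* and 0.12 in *vtc3-3*.

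Fold changes of single *TAS* loci were within 1 on the log2 scale. TAS1A, TAS1B and TAS1C, which share the miR173 site shown above with TAS2, had log2 fold changes of -0.40, -0.45 and -0.56 in *vtc2-4* and -0.54, -0.35 and -0.46 in *vtc3-3* against WT. Without WT replicate 1 they were -0.06, 0.05 and 0.03 in *vtc2-4* and -0.19, 0.15 and 0.12 in *vtc3-3*. TAS1A was lower in *vtc3-3* than in *vtc2-4* without overlap of the normalized counts, by a log2 fold change of -0.14 (adjusted p = 1). TAS2 gave -0.56 in *vtc2-4* and -0.23 in *vtc3-3* against WT, and 0.14 in *vtc2-4* and 0.47 in *vtc3-3* without WT replicate 1, the last with an unadjusted p of 0.0289 in the edgeR fit (adjusted p = 0.468). TAS3 gave -0.23 in *vtc2-4* and -0.65 in *vtc3-3* against WT, and 0.53 in *vtc2-4* (adjusted p = 0.31) and 0.07 in *vtc3-3* without WT replicate 1. TAS3, with its miR390 sites, gave -0.42 in *vtc3-3* against *vtc2-4* with all libraries and -0.46 without WT replicate 1. No *TAS* locus passed in any of the 3 comparisons by edgeR in either fit, nor by DESeq2, edgeR's exact test or limma voom, and an unadjusted p under 0.05 was found in 0 of the comparisons with all libraries and in 1 without WT replicate 1.

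The microRNA precursors gave few reads, apart from MIR414. MIR414 had 143, 143 and 161 reads in *vtc2-4*, 167, 102 and 94 in *vtc3-3* and 383, 119 and 121 in WT, and its log2 fold change in *vtc2-4* against WT was -0.81 (adjusted p = 0.51), or -0.05 without WT replicate 1. MIR163, whose microRNA acts on SABATH-type methyltransferase genes, had 21, 29 and 21 reads in *vtc2-4*, 29, 32 and 17 in *vtc3-3* and 53, 19 and 18 in WT. MIR824, whose microRNA targets AGL16, had 10, 11 and 14 reads in *vtc2-4*, 20, 6 and 6 in *vtc3-3* and 19, 9 and 10 in WT. In each of them WT replicate 1 was the highest WT library.

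MIR167d, a precursor of the microRNA that targets ARF6 and ARF8, had 12, 13 and 12 reads in *vtc2-4*, 9, 6 and 5 in *vtc3-3* and 10, 7 and 5 in WT. Its normalized counts did not overlap between the mutants, but the log2 fold change of -0.60 ± 0.32 in *vtc3-3* against *vtc2-4* did not pass (adjusted p = 1, and 0.425 without WT replicate 1). MIR156c, a precursor of the microRNA that holds back SPL genes and the change to the adult phase, had 10, 12 and 10 reads in *vtc2-4*, 11, 7 and 5 in *vtc3-3* and 20, 7 and 9 in WT. MIR156c did not pass the filter on low counts and was not tested. At these depths, changes of these precursors within their counting error were not detectable.

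**Figure D5:**
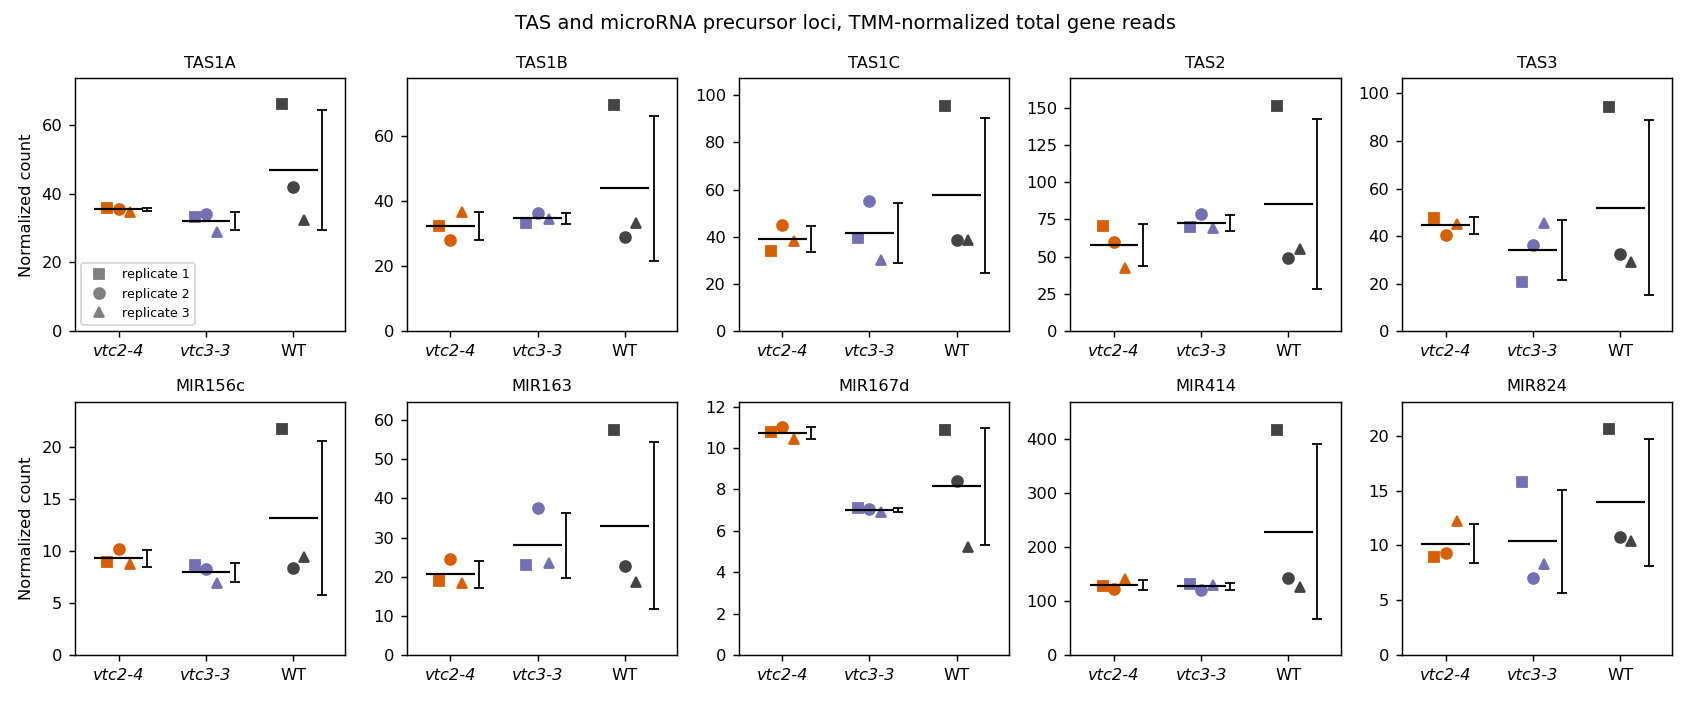
TMM-normalized total gene reads of the 5 TAS loci (top) and 5 microRNA precursor loci (bottom) per library, by genotype; symbols are replicates, lines are means and bars are SD of 3 libraries. WT replicate 1 is the highest WT library in all 10 panels, and no tested locus among them passed an adjusted p of 0.05.

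The small nuclear RNAs, parts of the spliceosome, had few reads, 234 for both loci together. U1.5 had 12, 17 and 12 reads in *vtc2-4*, 24, 12 and 8 in *vtc3-3* and 41, 9 and 9 in WT, and its log2 fold change was -0.86 in *vtc2-4* and -0.51 in *vtc3-3* against WT, or 0.24 in *vtc2-4* and 0.60 in *vtc3-3* without WT replicate 1. U2.3 had 15, 17 and 14 reads in *vtc2-4*, 6, 6 and 8 in *vtc3-3* and 14, 4 and 6 in WT, none of its comparisons passing. The interval of U2.3 overlaps the coding gene AT3G57770 along 591 bases, and the reads of the pair cannot be told apart where strand is not recorded. The ribosomal locus AT3G41768 had 359, 293 and 337 reads in *vtc2-4*, 386, 252 and 216 in *vtc3-3* and 514, 275 and 256 in WT.

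Of the 44 natural antisense RNAs, 38 overlapped another gene of the table, against 9 of the 68 other non-coding RNAs. The annotation named 41 pairs of an antisense locus and a partner present in the table. The partner had more reads than the antisense locus in 29 pairs and fewer in 12, and the median antisense locus had 35.6% of the reads of its partner. Where strand is not recorded, reads in the overlap of a pair cannot be told apart, so these values describe intervals and not separate RNAs. Of the partner genes, 34 were tested, and 0 passed against WT in *vtc2-4* or in *vtc3-3* by edgeR, DESeq2 or edgeR's exact test. By edgeR 4 of the 34 had an unadjusted p under 0.05 in *vtc2-4* and 2 in *vtc3-3*, beside 9.90% of all genes in *vtc2-4* and 6.23% in *vtc3-3*. By limma voom 2 passed in *vtc2-4*, 1 in *vtc3-3* and 1 in *vtc3-3* against *vtc2-4*. The share of all genes that limma voom called is not given here, so these counts are no result about the partners. Without WT replicate 1, 2 of 36 partners tested passed in *vtc2-4*, AT1G26210 and AT2G31750, beside 6.05% of all genes. In the same fit 1 passed in *vtc3-3*, AT2G31750, beside 0.681% of all genes, and 1 in *vtc3-3* against *vtc2-4*, AT1G26210, beside 6.76%. AT2G31750 (UGT74D1, a glycosyltransferase gene) had a log2 fold change of -0.64 in *vtc2-4* and -0.45 in *vtc3-3* against WT in that fit, while its antisense locus AT2G31751 had 12, 21 and 25 reads in *vtc2-4*, 20, 15 and 19 in *vtc3-3* and 19, 12 and 18 in WT, with overlap between all genotypes. Of the antisense loci themselves, 0 passed in any comparison by any of these tools or by limma voom with all libraries. By edgeR's quasi-likelihood test without WT replicate 1, the only one of these tests repeated without it, again 0 passed. An unadjusted p under 0.05 by edgeR with all libraries was found in 3 antisense loci in *vtc2-4* and 3 in *vtc3-3* against WT and in 1 in *vtc3-3* against *vtc2-4*. These are 8.82% of the 34 antisense loci tested in *vtc2-4* and in *vtc3-3* against WT, beside 9.90% of all genes in *vtc2-4* and 6.23% in *vtc3-3*, and 2.94% in *vtc3-3* against *vtc2-4*, beside 5.10%.

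Among antisense loci with a partner in the table, AT4G38932 had the most reads (chosen after the values were seen). It had 67, 79 and 89 reads in *vtc2-4*, 80, 51 and 35 in *vtc3-3* and 174, 61 and 48 in WT, while its partner AT4G38930 had 195, 175 and 174 reads in *vtc2-4*, 195, 112 and 109 in *vtc3-3* and 165, 146 and 137 in WT. The normalized count of AT4G38932 in WT replicate 1 was 3.07 times the mean of the other WT libraries. AT1G29785 had 564 reads over all libraries, and its partner AT1G29780, which it overlaps along 3 bases, had 60.

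Genes that make or degrade non-coding RNAs were examined as lists. None of 10 genes of microRNA biogenesis, 9 core proteins of small nucleolar ribonucleoproteins, 8 genes of the RNA exosome and its cofactors and 7 genes of 5′ to 3′ and nonsense-mediated decay passed against WT in *vtc2-4* or in *vtc3-3*, nor between the mutants, by edgeR with all 9 libraries, by DESeq2 or edgeR's exact test, and none had an unadjusted p under 0.05 in these fits. By limma voom 1 gene passed, the cap-binding gene AT2G13540, in *vtc3-3* against *vtc2-4*, and 2 genes of microRNA biogenesis had an unadjusted p under 0.05 in *vtc2-4* against WT. The median log2 fold change of the microRNA biogenesis genes was 0.04 in *vtc2-4* and 0.18 in *vtc3-3* against WT, beside -0.01 in *vtc2-4* and -0.003 in *vtc3-3* over all genes tested. In *vtc2-4* the median was 0.15 for the small nucleolar proteins, 0.01 for the exosome and 0.18 for the decay genes, and in *vtc3-3* it was 0.17, -0.03 and 0.22 for the same lists. The median of the microRNA biogenesis genes without WT replicate 1 was -0.07 in *vtc2-4* and -0.04 in *vtc3-3*, that of the small nucleolar proteins 0.07 in *vtc2-4* and 0.11 in *vtc3-3*, that of the exosome -0.02 in *vtc2-4* and 0.02 in *vtc3-3*, and that of the decay genes -0.06 in *vtc2-4* and -0.02 in *vtc3-3*. In that fit 1 gene of the lists passed, again AT2G13540, which was higher in *vtc3-3* than in *vtc2-4*.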

How the data were processed

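Shoot RNA was sequenced in 9 libraries, 3 each of *vtc2-4*, *vtc3-3* and WT, which the labels assign by title. According to the methods of the study, libraries were made with a TruSeq RNA kit and sequenced on a MiSeq, and reads were mapped and counted with the CLC Genomics Workbench. The genome build, the annotation, the use of strand and any selection of RNA by kind are not stated in the sources used here. Counts of ribosomal, transfer, small nuclear and small nucleolar RNAs are therefore counts in these libraries and need not follow their levels in the shoots. The deposited values used were raw counts per gene (total gene reads, uniquely mapped gene reads, exon reads), not normalized by the authors, and, per the file headers, the exon length, for which the score 0 marked a gene without exons. In all 28642 genes total gene reads equalled exon plus intron reads. Deposited columns with the authors' own fold changes, p-values and normalized values were not used (131 of 171 per-library columns).

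Counts were analysed with edgeR 4.0.16 in R 4.3.3: genes were kept by filterByExpr (minimum count 10), scaled by TMM, fitted over all 9 libraries with genotype as the only term, and tested by the quasi-likelihood F test with Benjamini-Hochberg adjustment over all genes and a threshold of 0.05. Of the 129 loci, 113 passed the filter and 16 did not. Fold changes are mutant over WT, or *vtc3-3* over *vtc2-4*. Shares of reads were compared by an exact two-sided permutation test. The scripts were tested on simulated data. Alternatives were DESeq2 1.42.0, edgeR's exact test, limma 3.58.1 (voom with library weights), other scalings and filters, uniquely mapped reads, a minimum of 30 or 100 reads for membership, removal of a lowess trend with locus length (span 0.3), a replicate block, fits of 2 genotypes, and leaving out each library. Removal of the length trend together with WT replicate 1, and shares without ribosomal and mitochondrial loci, were added after seeing the data.

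The loci and gene lists were chosen with earlier results of these data known. Loci named singly were the 10 with most reads, those past the threshold, the 3 largest rises and falls without overlap against WT, up to 5 past the threshold in each comparison without WT replicate 1, all microRNA, small nuclear and ribosomal RNA loci, and those at the threshold of membership; other loci are said to be chosen after their values were seen, and the *TAS* loci are given as a family. Sequences, kinds and positions of microRNAs come from RefSeq, TAIR10.1, in which 74 of the loci had the same start and end as in the table. Figures were drawn with matplotlib 3.10.9.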

Additional observations from a re-analysis of the deposited data

How the results depend on the processing

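The number of loci past the threshold in *vtc2-4* against WT, 1 as reported, was 2 by DESeq2 and by edgeR's exact test, 3 by limma voom with library weights, and 4 without WT replicate 1 with the length trend removed; it ranged from 0 to 4 when each library was left out. In *vtc3-3* against WT, 1 as reported, it was 0 when only the 2 genotypes were fitted, 2 by limma voom with library weights and 2 without WT replicate 1 with the length trend removed, with a range of 0 to 2 when each library was left out. In *vtc3-3* against *vtc2-4*, 0 as reported, it was 5 with only these 2 genotypes, 4 by limma voom, 5 without WT replicate 1 with the length trend removed, and 0 to 5 when each library was left out. Other scalings, no filter, uniquely mapped reads and a minimum of 30 or 100 reads left these counts within 1.5 times. Apart from leaving out WT replicate 1, the share of all genes called is not given here for these alternatives. Their counts therefore show no trait particular to these loci. Without WT replicate 1 that share was 6.05% in *vtc2-4* against WT, 0.681% in *vtc3-3* against WT and 6.76% in *vtc3-3* against *vtc2-4*.

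For GUT15 in *vtc2-4* against WT the direction was reversed without WT replicate 1 (0.24) and with the length trend also removed (0.24), and its values ranged from -0.31 to 0.24 when each library was left out. Of 1371 values of named loci under alternatives, 1335 stayed on the same side of the threshold, 30 passed it where the reported value did not, 4 no longer passed, and 2 reversed. The differences in read share moved by less than the SD of the 3 WT libraries (0.0784) under every alternative, an SD that WT replicate 1 sets, since that of WT replicates 2 and 3 was 0.00917; without WT replicate 1 the differences changed sign, and that for *vtc3-3* (0.0141) exceeded the SD of either group. Replicate numbers gave no strong pairing of the libraries. Same-numbered libraries of different genotypes had correlations of their deviations between -0.025 and 0.09, mostly positive. Libraries of different number had correlations between -0.102 and 0.084, mostly negative. With a replicate block the calls numbered 1, 1 and 0 in the 3 comparisons, as without it. The common biological coefficient of variation was 0.186 with all libraries and 0.0521 without WT replicate 1, so that 1 library sets what the comparisons with WT could detect.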
